A study of Mus musculus with 2 samples.

Results

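The miRNA genes inside the Hox gene clusters were examined in 2 mouse heart libraries. They are 6 of the 2202 miRNA genes in the count tables: Mir10a, Mir10b, Mir196a-1, Mir196a-2, Mir196b and Mir615. They were taken by gene symbol, and no measured value enters the rule, although it was set with earlier results of these data known. The tables come from small RNA sequencing of total RNA from whole hearts of female B6CASTF1/J mice, the first-generation hybrids of the C57BL/6 and CAST strains, at an age of 36 days. The series has 1 group, with biological replicates 1 and 2, no treatment and no control group. Each heart has a biosample record of its own, both records carry the same donor code, and the age is taken from its own field, since a free-text note differs in the unit.

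Hox genes encode transcription factors that give body segments their identity along the axis from head to tail. They lie in 4 clusters, and in each cluster the order of the genes follows the order in which they are switched on along that axis. Some of the stretches between Hox genes hold miRNA genes, which are cut from hairpin transcripts into RNAs that pair with messenger RNAs and lower their output. miR-10 genes lie beside the group 4 Hox genes, which are active towards the head end. miR-196 genes lie beside the group 9 genes, which are active further towards the tail. miR-10 is also known from the endothelium, where miR-10a dampens inflammatory signalling, and miR-196a is known for cutting the messenger RNA of Hoxb8.

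The mature sequences show which members act as relatives and which reads can tell them apart. All 6 members had a mature sequence in RefSeq (build GRCm38.p6). The 5′ arms of the miR-10 and miR-196 genes and the 3′ arm of Mir615 follow, from 5′ to 3′, with the seed (bases 2 to 8, which selects targets) in capitals.

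miR-10a-5p: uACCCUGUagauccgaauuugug

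miR-10b-5p: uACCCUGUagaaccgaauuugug

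miR-196a-5p: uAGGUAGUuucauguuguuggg

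miR-196b-5p: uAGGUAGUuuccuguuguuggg

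miR-615-3p: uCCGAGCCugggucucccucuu

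The members therefore fell into 2 seed groups and a single gene. miR-10a-5p and miR-10b-5p share 22 of 23 bases and differ by U12A, counted from 1 at the 5′ end with the miR-10a base first. miR-196a-5p and miR-196b-5p share 21 of 22 bases and differ by A12C, with the miR-196a base first. Both changes fall outside the seed. Among 1679 mature miRNA names in the RefSeq table, no other carries either seed, and none shares the seed of miR-615-3p.

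Mir196a-1 and Mir196a-2 encode the same mature 5′ arm from different clusters, while their mature 3′ arms differ in sequence and seed. Their hairpins are printed because the run they share decides what can be counted. The run is 22 nt long, in capitals, and is exactly the mature miR-196a-5p. The RefSeq hairpins are at chr11:96265164-96265265 and chr15:102973350-102973434 of GRCm38, both on the plus strand.

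Mir196a-1: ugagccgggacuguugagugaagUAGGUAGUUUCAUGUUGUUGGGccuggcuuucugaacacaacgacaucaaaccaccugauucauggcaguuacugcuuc

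Mir196a-2: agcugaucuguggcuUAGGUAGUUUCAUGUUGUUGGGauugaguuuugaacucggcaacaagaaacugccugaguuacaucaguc

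The deposited tables keep reads with more than 1 mapped place apart and add them to no gene's count. A read of the 5′ arm of miR-196a matches both hairpins, so the counts of Mir196a-1 and Mir196a-2 do not give the level of miR-196a. The longest run shared by the Mir10a and Mir10b hairpins was 15 nt and that of Mir196b with another member 12 nt. No run of 18 nt in the hairpins of Mir10a, Mir10b, Mir196b or Mir615 recurred in another annotated miRNA hairpin. Whether such runs recur elsewhere in the genome was not examined.

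The Hoxb cluster on chromosome 11 holds Mir10a and Mir196a-1, both between genes and in no annotated transcript of another gene. Mir10a (chr11:96317165-96317274, mm10, plus strand) lies 992 bp upstream of Hoxb4 and 11043 bp downstream of Hoxb5. Mir196a-1 lies 6191 bp upstream of Hoxb9 and 67716 bp downstream of Hoxb13. Mir10b (chr2:74726070-74726137, plus strand) lies in the Hoxd cluster, in intron 4 of the protein-coding Hoxd4 transcript with 6 exons and in intron 1 of a Hoxd3 transcript. Mir196b (chr6:52230081-52230165, minus strand) lies in the Hoxa cluster, 1031 bp downstream of Hoxa10. It falls in exon 1 of 2 non-coding Hoxa9 transcripts and in intron 1 of another. The Hoxc cluster on chromosome 15 holds Mir196a-2, in intron 1 of a long non-coding Hoxc5 transcript between Hoxc10 and Hoxc9, and Mir615 (chr15:103014910-103015001, plus strand), in intron 1 of the protein-coding Hoxc5 transcript. Each member lies on the strand of its neighbouring Hox genes.

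**Figure D1:**
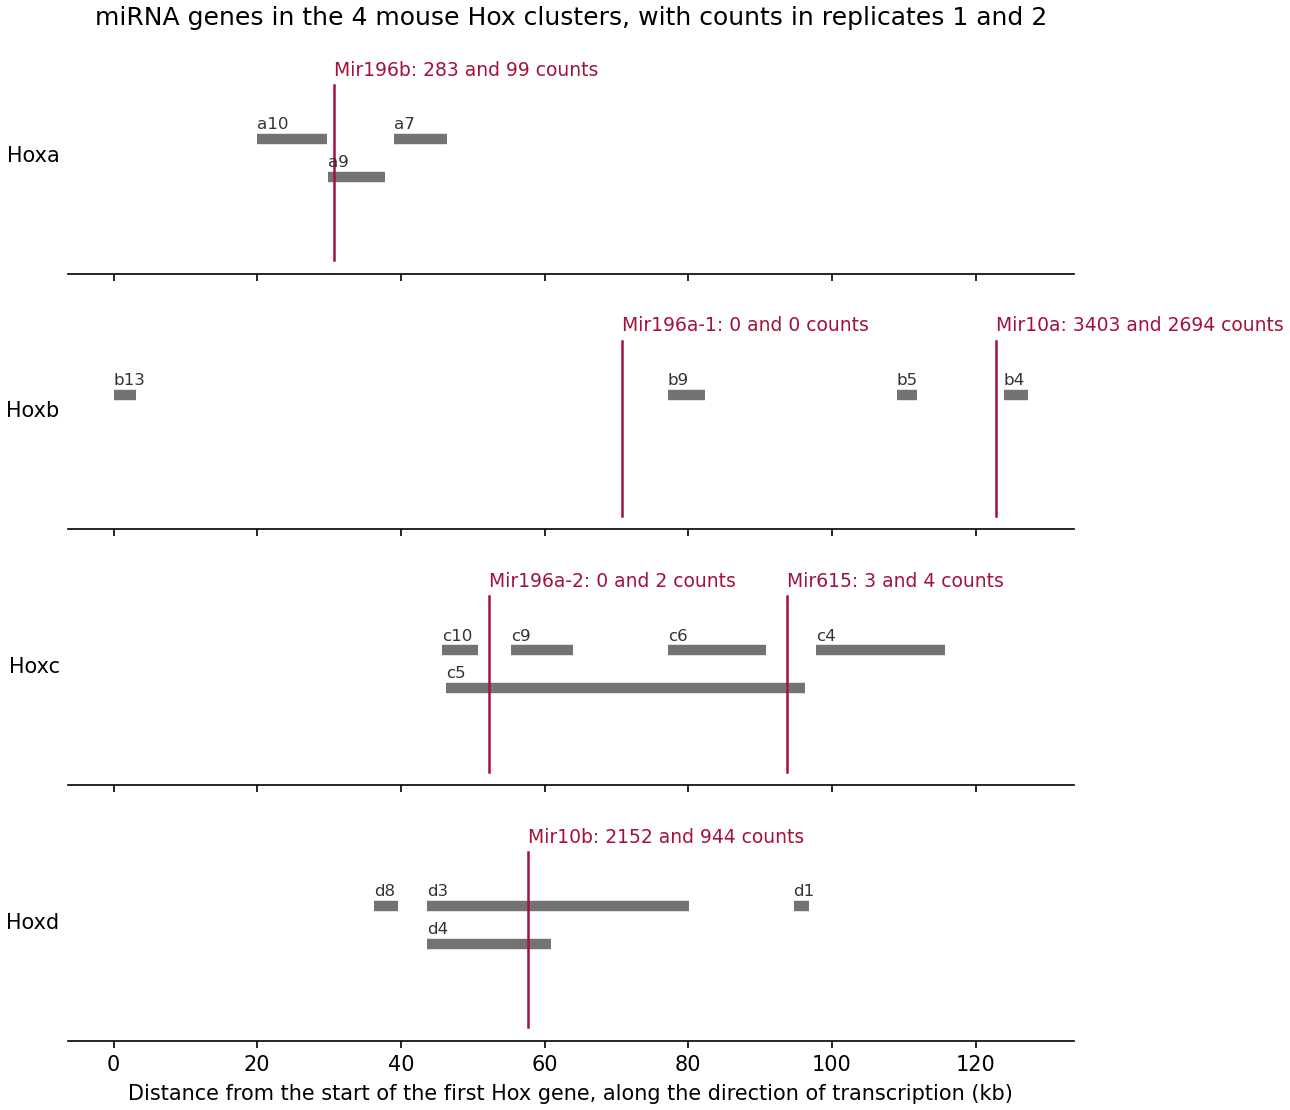
Map of the 4 Hox clusters, each drawn along its direction of transcription, with distance in kb from the start of its first Hox gene on the horizontal axis. Grey bars are the Hox genes that hold or flank a miRNA gene, named by cluster letter and group, and red lines are the miRNA genes with their sense-strand counts in replicates 1 and 2; Mir10a with 3403 and 2694 counts and Mir10b with 2152 and 944 stand beside group 4 genes.

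Levels are given in CPM, the sense-strand count of a gene per 1000000 sense-strand counts over all miRNA genes. The counts assigned to miRNA genes were 2074961 in replicate 1 and 1766135 in replicate 2, so that 1 read was worth 0.482 and 0.566 CPM. A further 42.0% and 39.8% of the reads mapped to several places. The mature miRNAs are 22 or 23 nt long, so levels of different members are set side by side without division by length, and a gene's count does not separate its 5′ and 3′ arms. How well each sequence was ligated and amplified was not measured, and neither was the effect of CAST variants on mapping. Of the markers of the labelled tissue, 5 of 8 cardiac and striated muscle miRNA genes were detected, summing to 6211 and 8750 CPM. The number detected cannot check the tissue, since all 7 genes of an epithelial list were detected too. The cardiac and striated muscle sum leaves out reads that mapped to several places. That list holds genes numbered as copies, among them Mir1a-1 with 8 and 7 counts and Mir133a-2 with 2 and 2. Their hairpins were not compared for shared runs, so a low count there does not show a low level of the miRNA.

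Detection required at least 2 CPM in each library, which held for 3 of the 6 members and for 15.2% of all miRNA genes. Mir10a, Mir10b and Mir196b were detected, and Mir196a-1, Mir196a-2 and Mir615 were not. Together the members held 5841 counts in replicate 1 and 3743 in replicate 2, which is 2815 and 2119 CPM. The miR-10 genes gave 95.1% of these counts in replicate 1 and 97.2% in replicate 2. The miR-196 genes gave 4.85% and 2.70%. These are shares of counts assigned to a single place, which leave out 5′ arm reads of miR-196a that match both of its genes.

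Mir10a had 3403 counts in replicate 1 and 2694 in replicate 2. These are 1640 CPM (95% exact interval 1585 to 1696) and 1525 CPM (1468 to 1584), a mean of 1583 ± 81.1 CPM (SD, n = 2). Mir10a ranked 51 and 52 among all miRNA genes, so its place was nearly the same in both hearts, while its intervals lay just apart. The intervals are Clopper-Pearson intervals and cover counting error only, since reads copied by PCR carried no molecular tags.

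Mir10b had 2152 counts in replicate 1 and 944 in replicate 2. These are 1037 CPM (994 to 1082) and 534 CPM (501 to 570), a mean of 786 ± 355 CPM. It ranked 66 and 84, and its level in replicate 1 stood above that in replicate 2 with no overlap of the intervals. In each library Mir10b lay below Mir10a, and the values of the 2 genes did not overlap between libraries either.

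Mir196b, the member of the miR-196 group with a mature 5′ arm of its own, had 283 and 99 counts. These are 136 CPM (121 to 153) and 56.1 CPM (45.6 to 68.2), a mean of 96.2 ± 56.8 CPM. It ranked 122 and 172, below Mir10b in both hearts, and again replicate 1 was the higher.

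The other 3 members lay at or near the limit of counting. Mir615 had 3 and 4 counts, which is 1.45 CPM (0.298 to 4.23) and 2.26 CPM (0.617 to 5.80). Mir196a-2 had no count in replicate 1, which allows up to 3 counts or 1.45 CPM (the upper end of the 95% exact two-sided interval is 1.78 CPM), and 2 counts in replicate 2, which is 1.13 CPM (0.137 to 4.09). Mir196a-1 had no count in either library, and for reads that map to it alone the 3-count limits were 1.45 and 1.70 CPM and the exact upper ends 1.78 and 2.09 CPM.

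Among the 4 members whose mature 5′ arm is shared with no other member, the order of the levels was Mir10a, Mir10b, Mir196b and Mir615 in both libraries. Mir196a-1 and Mir196a-2 are given no place in it, since their shared 5′ arm reads were not counted. Of the counts assigned to a single place, the Hoxb cluster gave 58.3% and 72.0% of the members' counts, the Hoxd cluster 36.8% and 25.2%, the Hoxa cluster 4.85% and 2.64%, and the Hoxc cluster 0.0514% and 0.160%.

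**Figure D2:**
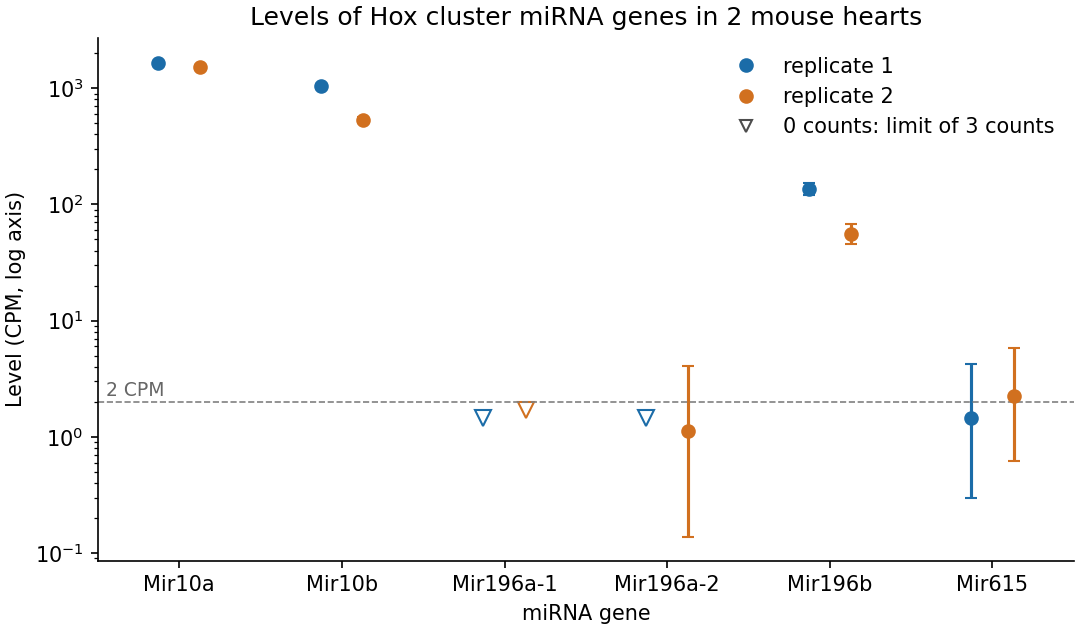
Level of each of the 6 genes (CPM on a log axis) in replicate 1 (blue) and replicate 2 (orange), with 95% exact intervals for counting error; open triangles mark libraries without a count, at the limit of 3 counts, and the dashed line is 2 CPM. Mir10a, at 1640 and 1525 CPM, lies closer between the hearts than Mir10b, at 1037 and 534 CPM, or Mir196b, at 136 and 56.1 CPM.

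Within the spans of the 4 Hox clusters, the count tables hold 1 other miRNA gene, Gm44463 in the Hoxd cluster (chr2:74701006-74701142, minus strand). It had no count in either library. None of the 6 members had a read on the opposite strand in either library, so their counts were the same with and without regard to strand.

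The ratio of counts within a library does not depend on how libraries are scaled. Mir10b stood at 0.632 times Mir10a (95% exact interval 0.599 to 0.668) in replicate 1 and at 0.350 times (0.325 to 0.378) in replicate 2. Put the other way, Mir10a exceeded Mir10b by 1.58 times in replicate 1 and 2.85 times in replicate 2. The intervals did not overlap, so the makeup of the miR-10 seed group differed between the hearts by more than counting error.

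Mir196b kept a steadier ratio to Mir10b than to Mir10a. It stood at 0.0832 times Mir10a (0.0734 to 0.0939) in replicate 1 and at 0.0367 times (0.0298 to 0.0449) in replicate 2, with intervals apart. Against Mir10b it stood at 0.132 times (0.116 to 0.149) and 0.105 times (0.0844 to 0.129), and these intervals overlapped. Mir10b lies on chromosome 2 and Mir196b on chromosome 6, while their mature sequences carry different seeds. With 2 libraries, this is a description of these hearts.

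**Figure D3:**
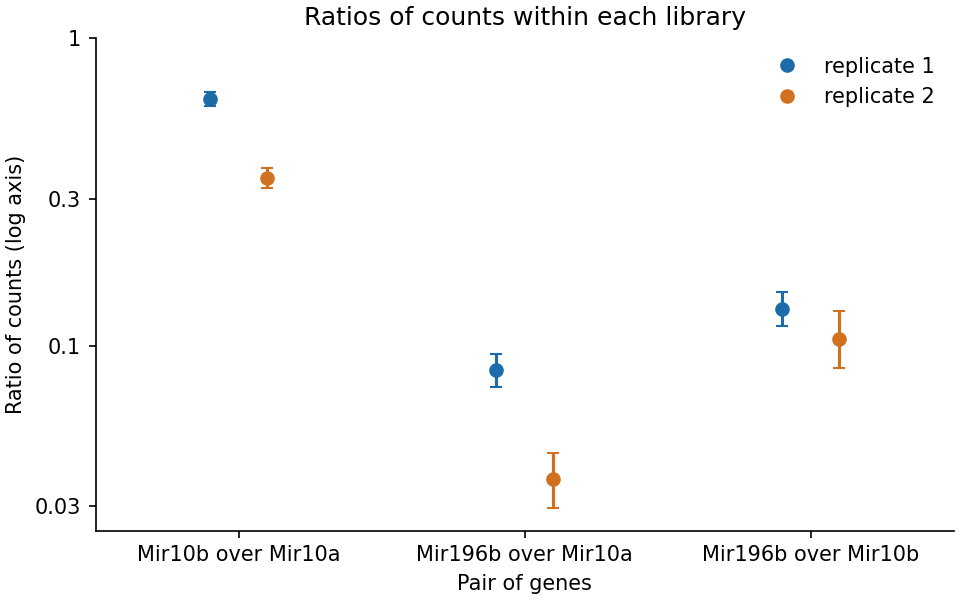
Ratio of counts between pairs of genes (log axis) within replicate 1 (blue) and replicate 2 (orange), with 95% exact intervals. Mir10b over Mir10a falls at 0.632 and 0.350 and Mir196b over Mir10a at 0.0832 and 0.0367, each with intervals apart, while Mir196b over Mir10b at 0.132 and 0.105 has overlapping intervals.

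The hearts were then set against each other gene by gene, on library sizes scaled by TMM, a trimmed mean of log ratios that assumes that most genes do not differ. Genes with at least 10 counts in total entered an exact two-sided binomial test of how its counts divide, with Benjamini-Hochberg adjustment over all 359 of them. The test compares 2 libraries beyond counting error and no conditions. Of the 6 members, 3 reached 10 counts, and all 3 were higher in replicate 1 at an adjusted p under 0.05. Of all tested genes, 44.3% passed in either direction and 24.2% were higher in replicate 1, so a call by itself is common here. TMM moved each log2 ratio by 0.17 from library size alone. Of the 159 genes called with TMM, 87 were higher in replicate 1 and 72 in replicate 2. The split was 67 and 103 under library size alone. DESeq2's size factors gave 96 and 60.

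Mir196b was 2.74-fold higher in replicate 1 (95% exact interval 2.17 to 3.48), a log2 ratio of 1.45 (binomial test, adjusted p = 2.67e-19). Of the tested genes, 10.9% lay as far from equality or farther. The tested genes include ones with few counts, such as Mir133b with 2 and 10 and a log2 ratio of -2.13. Such shares are therefore not those of genes counted as deeply as the members. Mir10b was 2.18-fold higher (2.02 to 2.36), a log2 ratio of 1.13 (adjusted p = 6.61e-95), and 16.2% of the tested genes lay as far or farther. Mir10a was 1.21-fold higher (1.15 to 1.27), a log2 ratio of 0.27 (adjusted p = 7.09e-13), and 64.1% lay as far or farther.

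By size, 2 of the 3 tested members were 2-fold or more higher in replicate 1, against 9.75% of tested genes, those with few counts included. With library size alone as scaling, Mir10b was 1.94-fold higher and Mir196b 2.43-fold, which leaves 1 past 2-fold, and Mir10a was 1.08-fold higher. The median log2 ratio of the 3 was 1.13, beside 0.01 over all 359 genes. The median size without regard to sign was 0.42 over all tested genes, which lies between Mir10a and Mir10b.

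**Figure D4:**
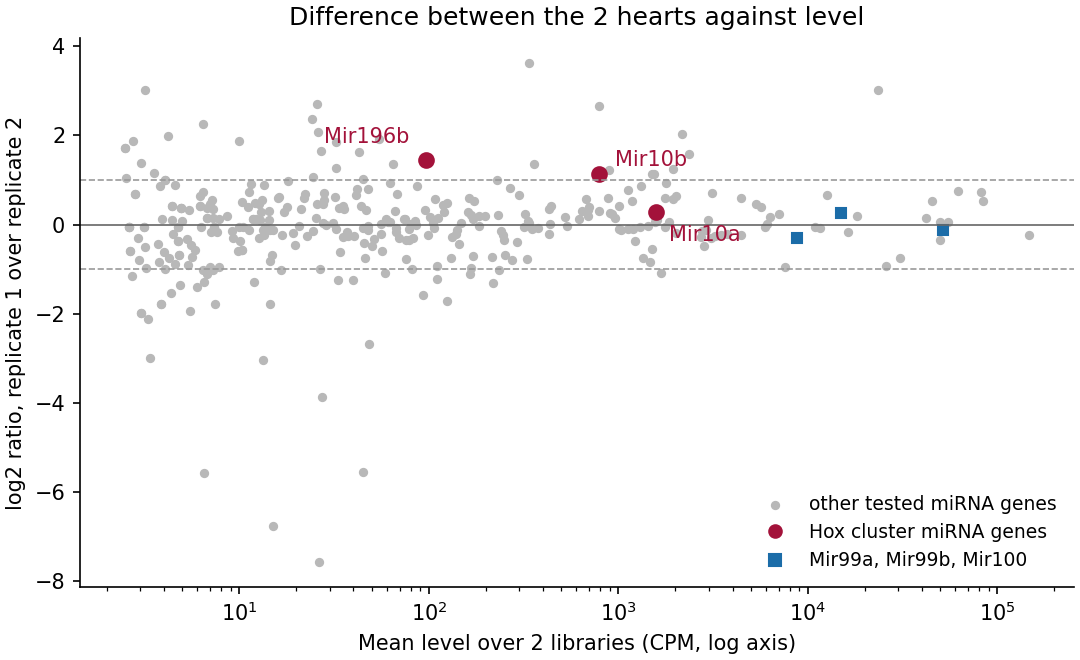
Log2 ratio of replicate 1 over replicate 2 against mean level (CPM on a log axis) for the 359 tested miRNA genes; red circles are Hox cluster genes, blue squares Mir99a, Mir99b and Mir100, and dashed lines mark 2-fold. Mir196b at 1.45 and Mir10b at 1.13 lie above the upper dashed line, and Mir10a at 0.27 lies among the bulk of the genes.

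Markers of other cell types differed between the hearts as well, though little for smooth muscle, and are given in CPM without TMM. Summed over its list, the erythroid group (3 of 3 genes detected) stood at 45889 CPM in replicate 1 and 7589 CPM in replicate 2. The endothelial group (3 of 3) stood at 99058 and 66887 CPM, nearly all of it in Mir126a at 97017 and 65811 CPM. Both the erythroid and the endothelial sums were higher in replicate 1, as Mir10b and Mir196b were. The smooth muscle group (2 of 2) was at 43118 and 44232 CPM, a ratio of replicate 1 over replicate 2 of 0.975, which became 1.10 with TMM. Lower in replicate 1 were the sums of the cardiac and striated muscle group given above and the fibroblast group (4 of 5) at 2599 and 3689 CPM. The leukocyte group (5 of 5) at 5448 and 6481 CPM and the epithelial group (7 of 7) at 351 and 714 CPM were lower too. Most of the leukocyte gap lay in Mir150, at 971 and 1955 CPM, and with TMM that group's ratio of replicate 1 over replicate 2 was 0.945. In the fibroblast list Mir214 stood at 926 and 1765 CPM, while Mir199b went the other way at 31.8 and 17.0 CPM. Of all these markers, Mir199a-1 of the fibroblast group had no count in either library. Its name pairs it with Mir199a-2, at 13 and 14 counts, and any reads that match both would be added to neither gene. The missing counts therefore do not show that the miRNA was absent. The part of the marker groups in the differences of Mir10b and Mir196b was not tested. In whole tissue, fewer cells of a type and less RNA per cell cannot be told apart.

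The genes nearest to each detected member were taken by the distance between log2 CPM values over the 2 libraries. Mir361, Mir342 and Mir676 lay nearest to Mir10a, at distances of 0.08, 0.13 and 0.16 on the log2 scale, with levels of 1506 to 1568 CPM in replicate 1 and 1564 to 1645 CPM in replicate 2. Mir15a, of the family that restrains the cell cycle, lay nearest to Mir10b at a distance of 0.25, with 1209 CPM in replicate 1 and 578 CPM in replicate 2. Like Mir10b, it had the higher level in replicate 1, which follows from its choice as the gene nearest in both libraries. Mir455 and Mir20a followed at 0.46 and 0.49. Nearest to Mir196b were Mir18 at 0.42, with 107 and 65.7 CPM, then Mir186 at 0.74 and Mir421 at 0.77. Mir18 and Mir20a belong to the miR-17 cluster, and none of the 9 lies in a Hox cluster. A likeness over 2 libraries is a description of level and no more.

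The miR-99 and miR-100 miRNAs are the closest sequence relatives of miR-10 and lie outside the Hox clusters, and are given for comparison of sequence and level. With base 6 of miR-10a-5p left out, it matches miR-100-5p at 20 of 22 positions and miR-99a-5p at 19. The missing base lies in the seed, which reads ACCCUGU in miR-10 and ACCCGUA in its relatives, and so the 2 sets share no seed.

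miR-10a-5p: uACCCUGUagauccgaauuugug

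miR-100-5p: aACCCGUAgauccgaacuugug

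miR-99a-5p: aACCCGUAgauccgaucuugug

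The relatives were far more abundant. Mir99a had 95897 and 99889 counts, or 46216 and 56558 CPM. Mir99b stood at 15316 and 14479 CPM and Mir100 at 7349 and 10131 CPM. In sum these 3 genes exceeded Mir10a and Mir10b by 25.7 times in replicate 1 and 39.4 times in replicate 2. Their log2 ratios of replicate 1 over replicate 2 were -0.12 for Mir99a, 0.25 for Mir99b and -0.29 for Mir100, all nearer to 0 than those of Mir10b and Mir196b. Mir10a, at 0.27, lay between Mir99b and Mir100 in distance from 0.

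Hox messenger RNAs were not measured here, but their 3′ UTRs can be read for matches to the members. For 21028 mouse genes, the longest 3′ UTR of a protein-coding GENCODE M21 transcript was searched on the transcribed strand. The word ACTACCT, the complement of the miR-196 seed, was present in 9 of 39 Hox 3′ UTRs (23.1%) and in 6.10% of all 3′ UTRs. It occurred 3.40 times per 10 kb in Hox genes and 0.455 times per 10 kb over all genes, and the median 3′ UTR lengths were 966 and 960 nt. Hoxa7 held 4 copies and Hoxc8 held 2, and the other genes with the word held 1 each. The word ACAGGGT, the complement of the miR-10 seed, was present in 4 of 39 Hox 3′ UTRs (10.3%) and in 12.5% of all. It occurred 1.05 times per 10 kb in Hox genes and 0.998 times over all genes. The difference between Hox genes and all genes was thus larger for the miR-196 word than for the miR-10 word.

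Along the full length of miR-196a-5p, Hoxb8 stood alone. Of 20916 3′ UTRs long enough, it was the single one with an ungapped match of 3 or fewer mismatches. The site lies at bases 418 to 439 of the 845 nt 3′ UTR, at chr11:96284888-96284909 (mm10, plus strand), between the positions of Mir196a-1 and Mir10a on that chromosome. Capitals mark bases that pair with miR-196a-5p by the usual rules.

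Hoxb8 site: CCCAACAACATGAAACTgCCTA

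Against the full complement of miR-196a-5p the site differs by A18G, counted from 1 at its 5′ end with the complement's base first, a change that allows a G:U pair. Against that of miR-196b-5p it differs by G11T and A18G. The change at position 18 faces the seed, so Hoxb8 is absent from the genes with the word ACTACCT. For miR-10a-5p and miR-10b-5p, none of 20898 3′ UTRs had 3 or fewer mismatches, and the closest had 5. A match of letters is a description and not a measured target.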

How the data were processed

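Small RNA libraries of 2 hearts were analysed from the authors' deposited raw counts per GENCODE M21 miRNA gene on mm10, per the deposited notes. Aligner and counter: not given in the sources used here. All 2202 gene IDs matched GENCODE M21, and the 4 rows that name no gene stayed out of library sizes. They held 63.0% and 64.6% of reads. The sense-strand column was used. No edgeR quasi-likelihood test was possible with a single group, so counts were set against each other by an exact binomial test with sizes from edgeR 4.0.16 (TMM), a prior count of 0.5 for log2 ratios and an adjusted p threshold of 0.05. DESeq2 1.42.0 gave alternative size factors. P-values measure only the spread of reads between 2 libraries. The test was checked on simulated data whose only spread was counting error, so the check does not cover spread between animals. Named genes were the 6 members, the 3 detected genes nearest in level to each detected member, Mir99a, Mir99b, Mir100 and other miRNA genes within the Hox clusters. The members, lists and markers were chosen with earlier results of these data known. The 3′ UTR search, and the Hox genes named from it, were added after the tables were seen. Sequences are from RefSeq (GRCm38.p6) and GENCODE M21.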

Additional observations from a re-analysis of the deposited data

How the results depend on the processing

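Of 48 alternative values of the main results, 8 moved by more than the spread between the hearts or, for counts of genes, by more than 1.5 times. These values were not scored for a reversal. A level or ratio taken from a single replicate lies within that spread of the mean by construction, so those settings could not move. With library size over all reads, Mir10a fell to 573 CPM, Mir10b to 286 CPM, Mir196b to 35.2 CPM, the miR-10 sum to 860 CPM and the miR-196 sum to 35.4 CPM, by construction of the larger denominator. Without regard to strand, reads at overlapping genes drop out of the total, and Mir10a rose to 2194 CPM and the miR-10 sum to 3288 CPM. With library size alone, 1 member and not 2 was 2-fold or more higher in replicate 1. All 3 tested members were called higher in replicate 1 under each of 8 alternatives, with log2 ratios of 0.10 to 0.34 for Mir10a, 0.96 to 1.19 for Mir10b and 1.28 to 1.51 for Mir196b, and a highest adjusted p of 0.0123 for Mir10a in the binomial test. At 1 CPM, or in replicate 2 alone, 4 members were detected, with Mir615 the fourth. Mir615, Mir196a-1 and Mir196a-2 stayed below 10 counts in total, and reads of miR-196a that map to several places were not counted.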
